A study of Tupaia belangeri with 15 samples.

Results

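The genes followed here were C1QA, C1QB, C1QC, C3, CFI, HTRA1, APOE, TIMP3 and CST3, which belong to the complement cascade or have been tied to macular degeneration. They were taken by gene name, 9 of the 83605 features in the count matrices of 15 tree shrew (TS) retinas, and all 9 names were present. Single-nucleus RNA libraries had been made from frozen retina, 5 each from infant, mature and senile TS, named Infancy 1 to 5, Mature 1 to 5 and Senile 1 to 5. The labels give the tissue and the stage of each retina, with no treatment, strain, sex or age, so the animals were untreated as far as described. The study's text gives a range of ages in months for each stage. Infant and mature animals came from a single animal centre and senile animals from another institute, so that for the senile retinas stage and source cannot be told apart.

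The complement cascade is a set of plasma and tissue proteins that marks particles and cells for removal. C1q, built from the chains A, B and C, starts the classical pathway when it binds its targets, C3 is the component where the pathways meet, and factor I (CFI) cuts activated C3 and so holds the cascade in check. In the nervous system C1q comes mainly from microglia. HTRA1 is a secreted serine protease, APOE carries lipids between cells, and TIMP3 is a matrix-bound inhibitor of metalloproteinases. CST3 encodes cystatin C, a secreted inhibitor of cysteine proteases, several of the cathepsins among them. Variants at or near several of these loci, though not all, have been associated in human populations with macular degeneration, a disease of the photoreceptors, the pigment epithelium and the layer beneath it.

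Nuclei were assigned to classes by marker genes among which the 9 genes took no part. Of 119765 nuclei within the study's limits, 44607 (37.2%) could be assigned, 75158 stayed unassigned and 2055 of the latter had been left out because they carried markers of 2 classes. The assigned nuclei comprised 872 microglia (15 to 77 per retina), 6098 Müller cells, 1126 astrocytes, 14356 cones, 913 rods, 14766 bipolar cells (BCs), 660 horizontal cells (HCs), 2275 amacrine cells (ACs) and 3301 retinal ganglion cells (RGCs), with 108 endothelial, 81 pericyte and 51 pigment epithelial nuclei besides. By construction of the gate each marker list was highest in its own class, which does not check the class, for example 4889 CPM (UMIs per 1000000 UMIs of a class) for the microglial list in microglia against 101 in the next class. RGCs were less clear, with 1545 CPM of the ganglion list beside 1134 CPM of the BC list. Rods carried the cone list at 543 CPM. They also carried the pigment epithelium list at 275 CPM (153 to 440), against 6.87 CPM in cones. In microglia the macrophage markers F13A1, MRC1 and LYVE1 had 167, 41 and 25 UMIs and CD163 none, and the lymphocyte markers SKAP1, CD3D, CD247 and CD3E had 10, 8, 2 and 1 UMIs and THEMIS none. Levels below are UMIs scaled to CPM within a class of a retina. They come from the 3′ ends of transcripts and are not per gene length, so they are compared between classes and retinas and not between genes.

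The libraries held 13429873 to 58734300 UMIs and fell into 2 sets by the Cell Ranger version in the submitters' processing notes. Infancy 1 to 3, Mature 1 and 2 and Senile 1 and 2 carry version 5.0.1 there and 6.1.2 in the file headers, and their molecule is labelled polyA RNA. The other 8 carry 7.0.1 in both places and total RNA as molecule. These differences coincide and cannot be told apart from each other. The study's methods name a single Cell Ranger version for all libraries and another kit version than the labels, and this conflict could not be settled. Both sets occurred in every stage, and the set was a term in the tests of stage. Any 2 libraries shared 4 to 29 barcodes, at most 0.405% of the smaller library. Senile 3, of the 7.0.1 set, lay among the 5.0.1 libraries for several of the genes, and Mature 4 stood apart for TIMP3. Where leaving out either changed a call or moved a value by much, the value without it is given.

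Over the nuclei within the limits, CST3 had 289842 UMIs, HTRA1 38067, TIMP3 21872, CFI 5616, C1QB 1896 and C1QA 1292. These 6 genes were found in all 15 retinas. The remaining 3 were almost absent from the counts: C1QC had 6 UMIs in 5 retinas, APOE 5 UMIs in 4 retinas, and C3 none. The counts therefore describe 6 of the 9 genes.

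C1QA (TSDBGID.26488) and C1QB (TSDBGID.7619), the A and B chains of C1q, were concentrated in microglia. C1QA averaged 647 ± 726 CPM in microglia (SD, n = 15) and 3.58 ± 5.21 CPM in astrocytes, the next class, and was higher in microglia in 15 of 15 retinas. C1QB averaged 867 ± 998 CPM in microglia and 2.12 ± 2.49 CPM in Müller cells, the next class, with microglia higher in 15 of 15 retinas. Below microglia no neighbours in the order of classes differed beyond their spread for either chain. In a test of each glial class against all assigned neurons of the same retina (edgeR), C1QB differed in microglia by 8.71 on the log2 scale (SE 0.39). With 1153 UMIs in microglia, 37 in Müller cells and 3 in astrocytes it entered the fit through its counts in microglia, so this value is a description and no test is drawn from it. C1QA did not pass the filter on low counts in this fit.

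Of the 872 microglia, 325 (37.3%) had a C1QA UMI and 380 (43.6%) a C1QB UMI. Nuclei of at least 1000 UMIs were also thinned to 1000 UMIs, and those with fewer were left out. C1QA was then found in 18.1% of 598 microglia (exact 95% interval 15.1% to 21.4%) and in 0.0590% of 35621 neurons. For C1QB these shares were 23.1% (19.8% to 26.7%) and 0.124%. Without thinning, 0.262% of neurons had a C1QA UMI and 0.482% a C1QB UMI. Whether these UMIs in neurons are background was not tested. Counting all 3 chains, 251 microglia (28.8%) had UMIs of 2 chains, 207 of a single chain and 414 of none, and no nucleus had all 3. These pooled shares join unlike sets of libraries. UMIs of 2 chains were found in 203 of 399 microglia (50.9%, 18.8% to 75.4% by retina) of the 5.0.1 set and in 48 of 473 (10.1%, 0% to 51.9%) of the 7.0.1 set. Of the thinned microglia 155 were of the former and 443 of the latter set, where C1QA was found in 44.5% and 8.80% and C1QB in 50.3% and 13.5%, so the exact intervals above cover counting error of the pool only. The limit of 1000 UMIs left out more microglia of the former set, which weighs the pooled thinned shares toward the latter. C1QC (TSDBGID.2651), the C chain, had a UMI in 4 microglia, all of different 7.0.1 libraries, and in none of the neurons.

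The level of C1q in microglia differed strongly between retinas. C1QA stood at 1574, 2051 and 1519 CPM in Infancy 1 to 3 and at 120 and 17.2 CPM in Infancy 4 and 5. In the mature retinas C1QA was 351, 613, 106, 71.5 and 13 CPM, and in the senile ones 490, 1709, 987, 15.5 and 67.8 CPM, each from replicate 1 to 5. The high retinas were those of the 5.0.1 set and Senile 3, and the stages overlapped. The same retinas were high for C1QB, with 2294, 3046, 2278, 252 and 42.9 CPM in infancy, 496, 679, 165, 167 and 65.2 CPM in the mature stage and 524, 1848, 970, 77.4 and 98.9 CPM in the senile stage. The lowest of these values rest on few molecules, 1 C1QA UMI among 15 microglia in Mature 5 and 2 among 71 in Senile 4. Over all microglia there were 810 C1QA UMIs and 1153 C1QB UMIs.

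**Figure D1:**
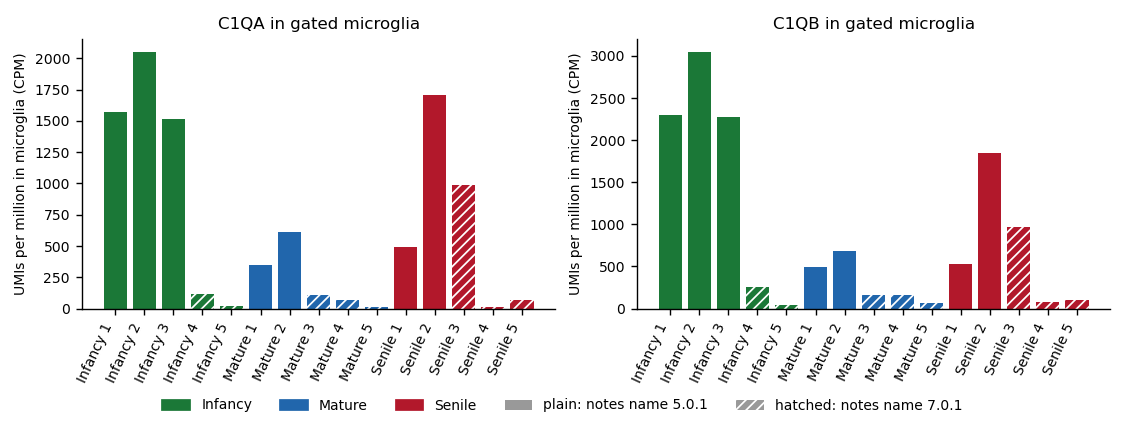
C1QA and C1QB in gated microglia, in CPM, with a bar for each retina, coloured by stage and hatched for the 7.0.1 libraries. The 5.0.1 libraries (351 to 2051 CPM for C1QA) and Senile 3 (987 CPM) stand above the other 7.0.1 libraries (13 to 120 CPM).

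The libraries of the 5.0.1 set averaged 1187 ± 682 CPM of C1QA in microglia (SD, n = 7) and those of the 7.0.1 set 175 ± 331 (n = 8). Without Senile 3 the latter averaged 58.7 ± 44.5 CPM, and the sets did not overlap. C1QB averaged 1595 ± 1026 CPM in the 5.0.1 set and 230 ± 307 in the 7.0.1 set, or 124 ± 74.0 without Senile 3. In the fit with stage and set as terms, C1QA was lower in the 7.0.1 libraries by a log2 difference of -3.11 (SE 0.70, edgeR adjusted p = 0.0134) and C1QB by -2.72 (SE 0.59, adjusted p = 0.0103). Without Senile 3, which was singled out from its values, the differences were -3.96 and -3.32. The comparison of the sets was itself added after the values of single retinas had been seen. C1QA passed the filter on low counts through the 5.0.1 libraries, where it was high. Its difference and adjusted p are therefore a description. The summed microglial markers, whose level the gate itself holds up and which are therefore no comparison for C1q, were at 5232 CPM (3772 to 6613) in the 5.0.1 set and 4588 CPM (3528 to 5890) in the 7.0.1 set. Microglia made up 1.88% of the assigned nuclei in the former and 2.03% in the latter. The part of the sets' other differences in the level of C1q was not tested.

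The share of a retina's C1q molecules that fell in assigned microglia also differed. It ranged from 70.0% to 93.7% for C1QA in the 5.0.1 libraries and from 6.67% to 60.0% in the 7.0.1 libraries. For C1QB the sets overlapped, with 64.6% to 90.9% and 14.9% to 66.7%. Over all libraries, microglia held 62.7% of the C1QA and 60.8% of the C1QB UMIs. In bulk sums such as the whole retina, fewer microglia and less C1q RNA per microglial nucleus cannot be told apart.

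C3 (TSDBGID.18083) had no UMI among 445857418, a depth at which a count of 0 allows up to 0.00673 CPM (3 counts; counting error only). A feature named C3li1, a numbered copy, had 49 UMIs and the antisense feature C3-AS-2 158. APOE (TSDBGID.18294), the lipid carrier commonly used as a glial marker, had a UMI in 3 of 6098 Müller cells (0.0492%), in 1 of 14356 cones and in no microglial nucleus or astrocyte. Its 5 UMIs came from Mature 5 and Senile 2, 3 and 5. Whether the RNA was absent from the nuclei or not assigned to the named gene was not tested.

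CFI (TSDBGID.15142), the protease that cuts activated C3, was low and spread over the classes. ACs had the highest mean, 22.3 ± 7.74 CPM (SD, n = 15), followed by astrocytes (18.6 ± 10.0), RGCs (13.6 ± 4.46), HCs (11.1), Müller cells (10.4), rods (10.1), BCs (8.06), microglia (6.30) and cones (5.77). None of these neighbours differed beyond their spread. Over a wider step, ACs were above cones in 15 of 15 retinas, by 1.01 ± 0.36 (SD) on the scale of log2(CPM + 10). Both classes were picked as the highest and the lowest by these same values, so this is a description. Microglia, where the C1q chains were concentrated, held 15 CFI UMIs in all.

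Over all nuclei of a retina, CFI stood at 9.90, 11.2, 9.60, 13.2 and 18.1 CPM in infancy, at 13.1, 13.9, 12.6, 15.4 and 18.1 CPM in the mature stage and at 8.02, 9.23, 12.5, 7.42 and 9.50 CPM in the senile stage. Every senile retina lay below every mature one, although Senile 3 (12.5 CPM) and Mature 3 (12.6 CPM) nearly met. The log2 fold change from mature to senile was -0.73 (SE 0.17, edgeR adjusted p = 0.228) and did not pass the adjustment. Within the sets it was -0.78 (5.0.1) and -0.70 (7.0.1). DESeq2 called this difference (-0.74, adjusted p = 0.00544). Within classes the values were negative in 5 of 5 classes where CFI could be tested, from -0.86 to -0.35, and the lowest adjusted p was 0.353. These classes share the same retinas and are not separate observations.

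**Figure D2:**
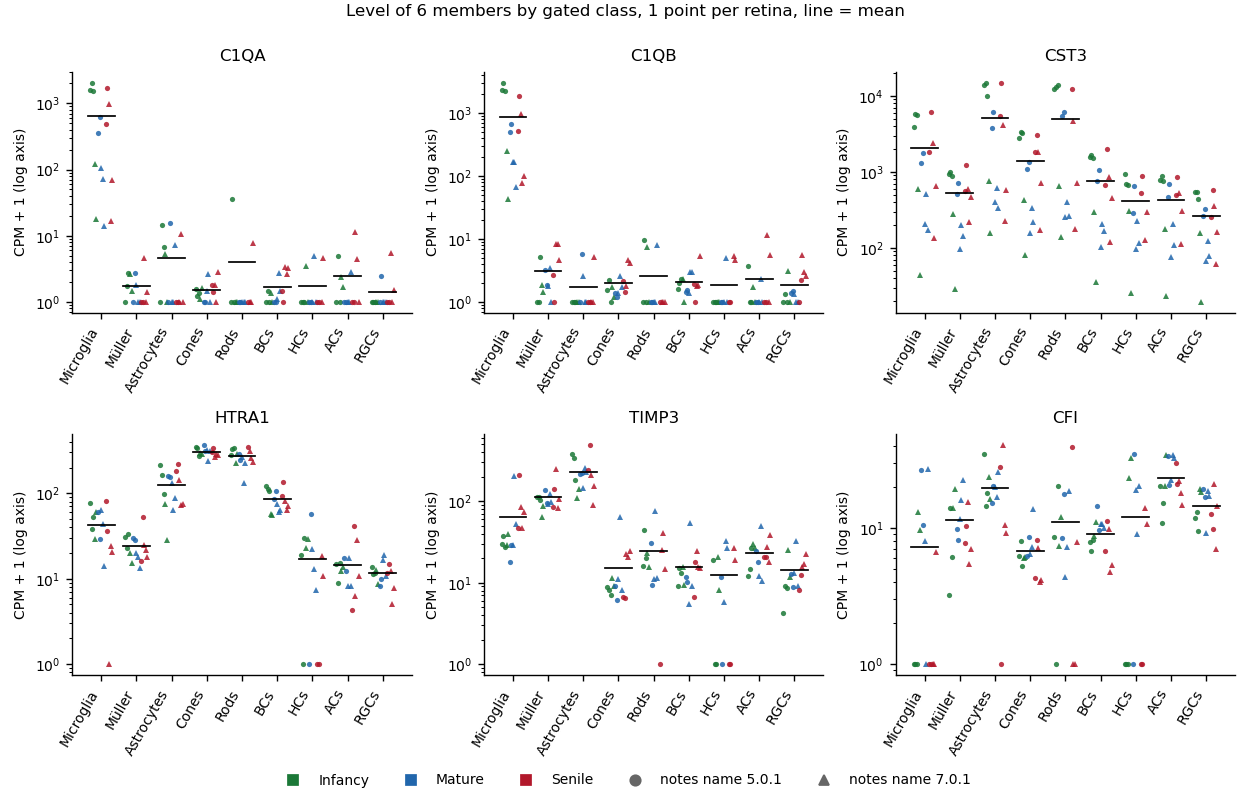
Levels of the 6 measurable genes in 9 gated classes, in CPM + 1 on a log axis, with a point for each retina (colour for stage, circles for the 5.0.1 and triangles for the 7.0.1 libraries) and a line at the mean. C1QA and C1QB have their highest mean in microglia (647 and 867 CPM), HTRA1 in cones (303 CPM), TIMP3 and CST3 in astrocytes (226 and 5066 CPM) and CFI in ACs (22.3 CPM).

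HTRA1 (TSDBGID.8750), the serine protease, was highest in photoreceptors. It averaged 303 ± 35.7 CPM in cones (SD, n = 15, range 235 to 367) and 268 ± 55.9 CPM in rods (n = 14, 132 to 345). Cones and rods did not differ beyond their spread (0.19 ± 0.29 on the scale of log2(CPM + 10), with cones higher in 11 of 14 retinas). Astrocytes had 124 ± 58.5 CPM and BCs 84.9 ± 25.3, and the other larger classes were between 41.3 CPM (microglia) and 10.6 CPM (RGCs). The few vascular and epithelial nuclei, pooled over retinas, had 110 CPM in endothelium, 77.3 CPM in pigment epithelium and 35.0 CPM in pericytes. These pooled levels rest on 38, 21 and 6 UMIs. Rods were above astrocytes in 14 of 14 retinas.

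Against the sum of all assigned neurons, in which cones held the most UMIs (72197542), HTRA1 was lower in all 3 glial classes. By class means, astrocytes lay above BCs, and all 3 glial classes above HCs (15.8 CPM), ACs (13.6 CPM) and RGCs. The log2 differences were -2.01 for microglia (SE 0.17, edgeR adjusted p = 2.35e-15), -2.78 for Müller cells (SE 0.12, adjusted p = 2.03e-27) and -0.43 for astrocytes (SE 0.13, adjusted p = 0.00321). The last was -0.38 and not called without a term for the retina (edgeR adjusted p = 0.0856). Cones of infant retinas had 309 ± 35.6 CPM, those of mature retinas 308 ± 47.2 CPM and those of senile retinas 293 ± 27.6 CPM (SD, n = 5 each). The log2 fold changes of stage in the 6 classes tested lay between -0.35 and 0.31.

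TIMP3 (TSDBGID.24484), the metalloproteinase inhibitor, was highest in macroglia among the larger classes, with 226 ± 107 CPM in astrocytes and 112 ± 42.9 CPM in Müller cells (SD, n = 15). Astrocytes were above Müller cells in 14 of 15 retinas, by 0.89 ± 0.56 on the scale of log2(CPM + 10). Microglia had 63.2 ± 61.1 CPM, and the 6 neuronal classes averaged 11.6 CPM (HCs) to 23.3 CPM (rods). Against neurons the log2 differences were 4.13 in astrocytes (SE 0.21, edgeR adjusted p = 1.39e-24), 3.17 in Müller cells (SE 0.19, adjusted p = 4.95e-22) and 1.91 in microglia (SE 0.31, adjusted p = 4.22e-07). TIMP3 passed the filter on low counts in this fit through the glial classes, where it was high. These differences and adjusted p are therefore a description, and no test is drawn from them. Higher pooled levels came from the few vascular and epithelial nuclei, 543 CPM in endothelium (exact 95% Poisson interval 468 to 626), 548 CPM in pericytes (443 to 671) and 972 CPM in pigment epithelium (858 to 1096). These intervals cover counting error only, since 10 such nuclei were reached in 5 retinas for endothelium and in 2 each for pericytes and pigment epithelium. Of the 51 pigment epithelial nuclei 22 came from Mature 4, where their own marker list was at 1592 CPM, against 11487 CPM in Infancy 3. The BC list was at 1267 to 1421 CPM in the pigment epithelial nuclei of these 2 retinas, so the class is less certain in Mature 4.

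In the human genome TIMP3 lies within an intron of SYN3, a synapsin, and SYN3 had another order of classes. SYN3 averaged 131 ± 36.2 CPM in ACs, 87.5 ± 19.3 in RGCs and 76.8 ± 35.2 in astrocytes, and 37.8 ± 16.8 in Müller cells (SD, n = 15). The highest mean of SYN3 was thus in ACs and that of TIMP3 in astrocytes. Whether the genes overlap in the TS was not checked.

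Over all nuclei, TIMP3 stood at 21.2, 27.1, 25.3, 32.1 and 31.4 CPM in infancy, at 28.9, 20.9, 28.9, 224 and 32.4 CPM in the mature stage and at 16.2, 20.6, 71.8, 56.6 and 48.5 CPM in the senile stage. Mature 4 lay far above the other mature retinas, and among the senile ones the 3 libraries of the 7.0.1 set were the high ones. Mature 4 also stood apart in cones (63.8 CPM, next mature retina 10.0) and BCs (53.5 CPM, next 10.8). Mature 4 held 7963 CPM of the lens crystallin CRYBB2, 69.3 CPM of TTR, which the pigment epithelium is known to express but which is not particular to it, and 22 of the 51 nuclei assigned to the pigment epithelium. Infancy 4 and 5 also had CRYBB2 (9419 and 2369 CPM), the other retinas had 3.25 to 128 CPM, and the highest TTR was in Senile 3 (145 CPM), where 0 nuclei were assigned to the pigment epithelium. Their part in the level of TIMP3 was not tested.

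**Figure D3:**
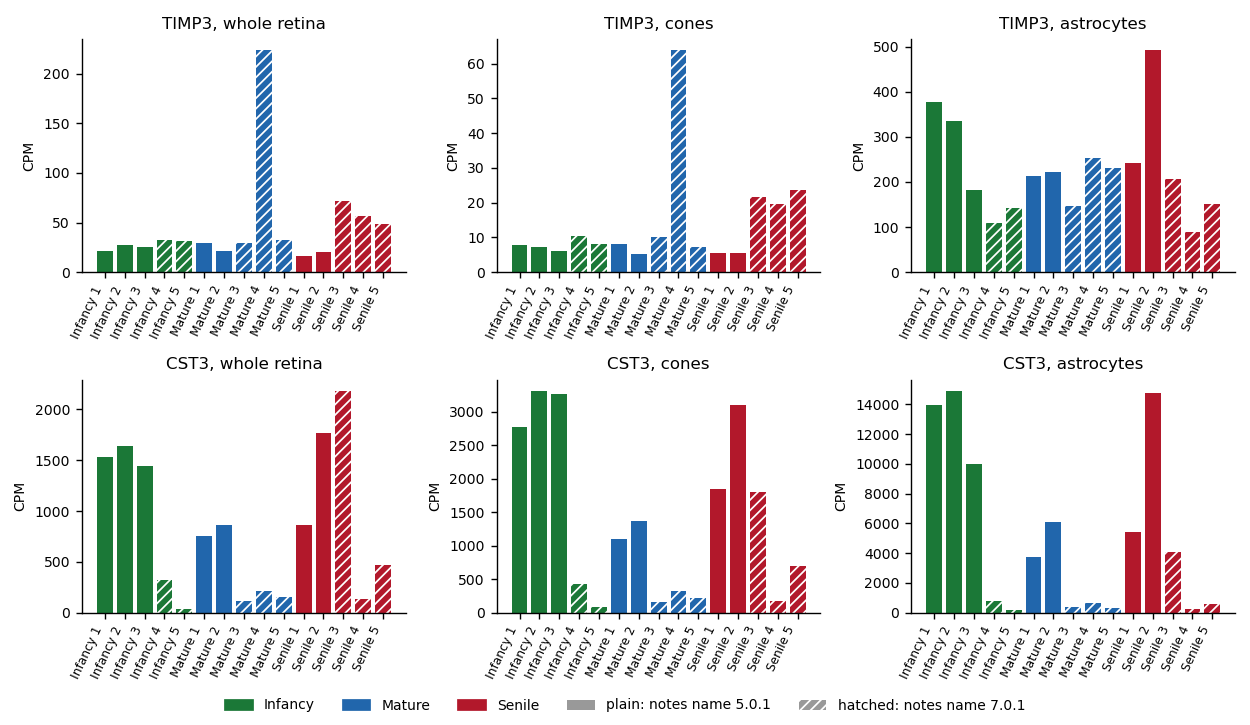
TIMP3 and CST3 by retina, in CPM, in the whole retina, cones and astrocytes, with a bar for each retina, coloured by stage and hatched for the 7.0.1 libraries. Mature 4 stands out for TIMP3 in the whole retina (224 CPM), and the 5.0.1 libraries with Senile 3 stand out for CST3.

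CST3 (TSDBGID.5941), encoding cystatin C, was the most abundant of the 9 genes by UMIs and was present in every class. Its mean was 5066 ± 5658 CPM in astrocytes (SD, n = 15), 5026 ± 5567 in rods (n = 14), 2065 ± 2209 in microglia and 1375 ± 1227 in cones. Lower means were found in BCs (762), Müller cells (523), ACs (429), HCs (417) and RGCs (263 CPM). Astrocytes and rods did not differ beyond their spread, nor did microglia and cones, whereas rods were above microglia in 13 of 14 retinas and cones above BCs in 15 of 15. Pooled pigment epithelial nuclei reached 10304 CPM (exact 95% Poisson interval 9926 to 10693, counting error only), with the limit on this class given above for TIMP3. Rods carried part of the pigment epithelium list, and its part in their level of CST3 was not tested.

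Against neurons of the same retinas, CST3 was higher in astrocytes by 1.99 on the log2 scale (SE 0.20, edgeR adjusted p = 3.71e-13) and in microglia by 0.64 (SE 0.19, adjusted p = 0.00464). In Müller cells it was lower, by a log2 difference of -0.45 (SE 0.19, adjusted p = 0.0324). Without a term for the retina neither passed (adjusted p = 0.251 and 0.246), and the difference in Müller cells was also lost without Infancy 5, Mature 1, Senile 1 or Senile 3 (-0.44 to -0.41, adjusted p from 0.0509 to 0.0706). It was also not called by DESeq2 (adjusted p = 0.0561) or with nuclei carrying markers of 2 classes kept (-0.33), and the difference in microglia was 0.10 and not called without the filter on low counts.

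Within each class CST3 differed widely between retinas. In rods the 3 high infant retinas had 12461, 13077 and 13719 CPM against 655 and 137 CPM in Infancy 4 and 5. In astrocytes CST3 ran from 157 CPM (Infancy 5) to 14916 CPM (Infancy 2). Over all nuclei CST3 stood at 1533, 1638, 1441, 318 and 37.0 CPM in infancy, at 749, 860, 112, 216 and 151 CPM in the mature stage and at 861, 1771, 2184, 135 and 464 CPM in the senile stage. As with C1q in assigned microglia, the 5.0.1 libraries and Senile 3 were the high ones.

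Between glia and neurons, 4 of the 9 genes had enough counts to be tested. Leaving out C1QB, which entered through microglia, CST3 and TIMP3 were higher and HTRA1 lower in microglia, where 54.4% of all 9193 features tested were called. For Müller cells 1 was higher and 2 were lower (68% of all features called), and for astrocytes 2 were higher and 1 lower (57.7% of all features called). A call by itself is thus close to the background of this comparison.

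**Figure D4:**
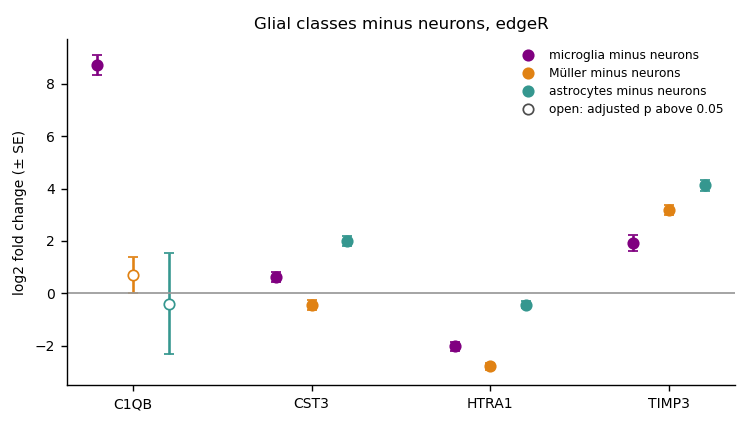
Log2 fold change (± SE, edgeR, n = 15 retinas) of each glial class against all gated neurons of the same retina for the 4 genes tested. C1QB, which entered the fit through microglia, lies at 8.71 there as a description. TIMP3, which entered through the glial classes, is above 0 in all 3 (1.91 to 4.13), also as a description. HTRA1, against this sum weighted by cones, is below 0 in all 3 (-2.78 to -0.43).

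The question of the stages was whether any of the genes changed from infancy to the mature and senile retina. Within the 9 classes, 28 pairs of gene and class passed the filter on low counts, with C1QA and C1QB tested in microglia alone, CFI in 5 classes, HTRA1 and TIMP3 in 6 each and CST3 in 9. None of the 28 was called by edgeR between infancy and maturity (0.713% of all features called), between maturity and senility (0.00681%) or between infancy and senility (1.05%). There were 0, 8 and 0 pairs at an unadjusted p under 0.05, beside 7353, 5914 and 6428 of all 73465 features, and none was called by DESeq2. In the whole retina 6 genes were tested and none was called, where 0.994%, 0% and 1.64% of all 28977 features were. Of these 6 genes, 0, 2 and 1 were under an unadjusted p of 0.05, and 1, CFI from maturity to senility, was called by DESeq2. For that step 2808 of all features were under an unadjusted p of 0.05 and 194 were called by DESeq2.

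The values of the stage contrasts were large for the genes with a wide spread and small for the others. In microglia C1QA changed by -1.31 on the log2 scale from infancy to maturity (SE 0.80, edgeR adjusted p = 0.659) and by 1.72 from there to senility (SE 0.82, adjusted p = 0.761). C1QB gave -1.42 (SE 0.69, adjusted p = 0.541) and 1.15 (adjusted p = 0.794) for the same steps. CST3 in microglia gave -1.17 and 1.64 (adjusted p = 0.657 and 0.688), the latter being 0.75 without Senile 3, and over all 9 classes CST3 was negative in 9 for the former step and positive in 9 for the latter (0.43 to 2.20, lowest adjusted p = 0.477). The classes share the same retinas, so 9 classes are not 9 observations. Without the filter on low counts edgeR called C1QA and CST3 in microglia in both steps (adjusted p from 1.07e-06 to 0.00651) and C1QB in the former (adjusted p = 0.000387). These calls depend on leaving out the filter, and no change is read from them. The share of all features called in that setting is given in the closing section.

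The first step was also computed within each set of libraries, and the difference between the sets was not tested. In the 5.0.1 retinas C1QA in microglia differed between infancy and maturity by -1.81 (adjusted p = 0.133, edgeR) and C1QB by -2.10 (adjusted p = 0.083), against -0.04 and -0.18 in the 7.0.1 retinas. From maturity to senility the values were 0.99 and 0.82 in the 5.0.1 set and 2.06 and 1.22 in the 7.0.1 set. The fit of all libraries but Senile 3 gave 0.24 and 0.01 for this step. Among the 28 pairs, 2 were called within the 5.0.1 set between infancy and maturity, CST3 in cones (-1.32, adjusted p = 0.0226) and in rods (-1.20, adjusted p = 0.00533), where 0.843% of all features were called. In the whole retina of that set C1QB was called (-1.82, adjusted p = 0.048), with 1.04% of all features called. These contrasts compare 3 infant with 2 mature retinas and were added after the values had been seen.

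**Figure D5:**
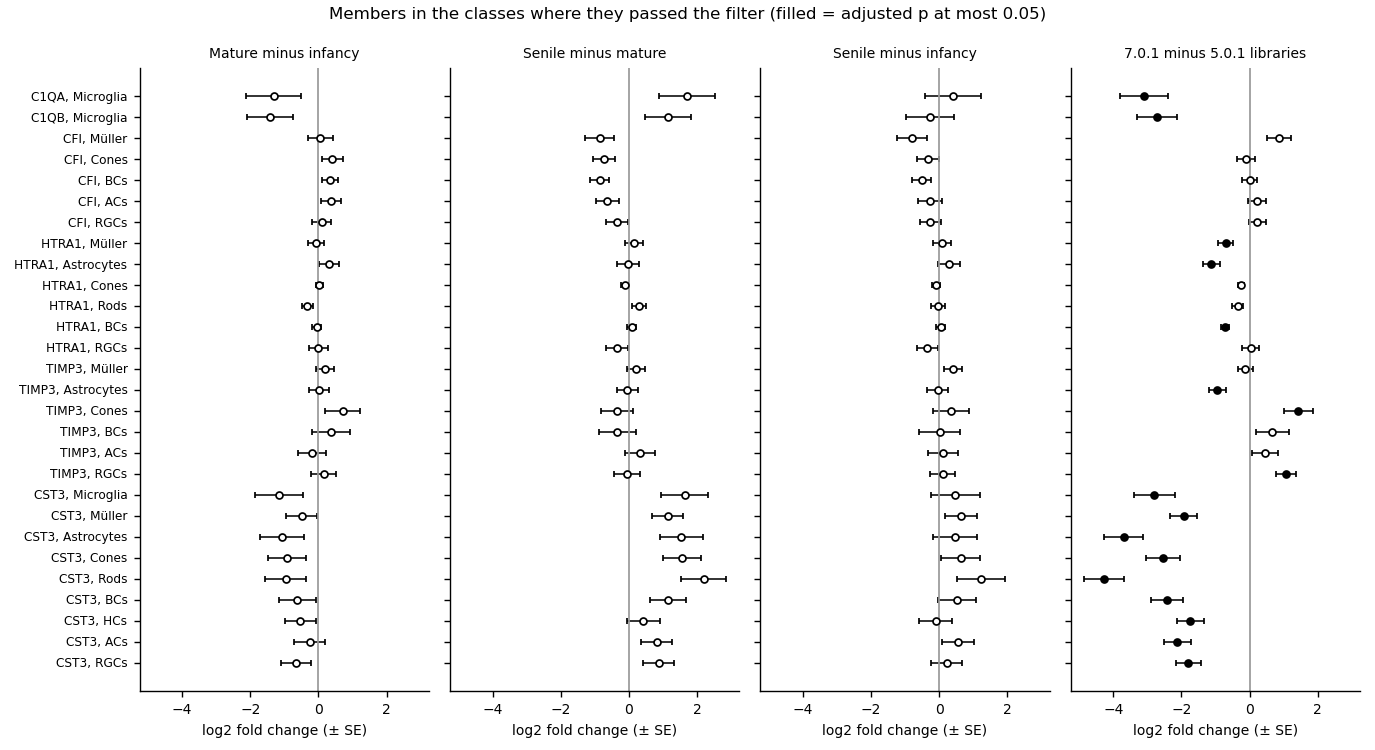
Log2 fold changes (± SE, edgeR) of the tested genes in each class for the 3 stage contrasts and for the 2 sets of libraries, with filled points at an adjusted p of at most 0.05. No stage contrast has a filled point, whereas 17 of 28 pairs, with CST3 in 9 classes among them, are filled between the sets of libraries.

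More pairs were called between the sets of libraries than between stages, a comparison that was added after the values of single retinas had been seen. Between the 7.0.1 and the 5.0.1 libraries 17 of the 28 pairs were called, 15 of them lower and 2 higher in the 7.0.1 set, where 20.7% of all features were called. Of the 17 pairs, 9 were CST3 in classes of the same libraries, so the pairs are not separate observations. C1QA in microglia, also among them, had entered the fit through the 5.0.1 libraries. CST3 was lower in all 9 classes, by log2 differences from -1.74 (HCs) to -4.28 (rods). Without Senile 3 CST3 gave -4.67 in rods and -3.25 in microglia. HTRA1 was lower in Müller cells (-0.70), astrocytes (-1.12) and BCs (-0.71), while in cones the difference of -0.24 (SE 0.09, edgeR adjusted p = 0.0574) missed the threshold and passed it without Senile 3 (-0.25). TIMP3 was lower in astrocytes (-0.94) and higher in cones (1.43) and RGCs (1.07). The ganglion marker list in RGCs was at 2260 CPM in the 5.0.1 set and 919 CPM in the 7.0.1 set. The BC list averaged 1134 CPM in RGCs over all retinas, and the part of the make-up of this class was not tested. Without Mature 4 the values of TIMP3 were 0.86 in cones and 0.94 in RGCs. The call of TIMP3 in cones was lost without Mature 1, Mature 2, Senile 1 or Senile 2 (1.27 to 1.39), and that in astrocytes without Infancy 1, 2, 4 or 5, Mature 3 or Senile 2 (-0.91 to -0.78). CFI was not called in any class.

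For the whole retina, 3 of 6 genes were called between the sets, CST3 (-2.16, edgeR adjusted p = 0.0152), HTRA1 (-0.69, adjusted p = 0.00631) and TIMP3 (1.23, adjusted p = 0.036), where 36.4% of all features were called. Without Senile 3 there were 5, C1QA (-1.82) and C1QB (-1.43) being added. Without Mature 4 the value of TIMP3 was 0.66 and C1QA was also called (-1.70). The call of TIMP3 was lost without Mature 1, Mature 2, Senile 1 or Senile 2 (1.07 to 1.20).

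Other complement genes were looked at from a list of 38, of which 32 names were in the files and 28 had a UMI. C1R, C4B, FCN2, CR2, C3AR1 and ITGAX were not found under these names. CFB and CFD, activators of the alternative pathway, had no UMI. CLU, encoding clusterin, which binds late complement complexes, was the most abundant with 103719 UMIs and averaged 1836 ± 1341 CPM in Müller cells (SD, n = 15). It was higher in Müller cells than in neurons by 3.84 on the log2 scale (SE 0.21, edgeR adjusted p = 1.29e-23) and in astrocytes by 2.89 (SE 0.20, adjusted p = 1.45e-18). ITGAM, the alpha chain of complement receptor CR3, had 840 of its 1041 UMIs in microglia, with 405 CPM there, and entered the fit through them, so its log2 difference of 10.37 is a description. The 4 genes of the list in that fit had median log2 differences of -0.01 in microglia, 0.19 in Müller cells and -0.23 in astrocytes, beside -0.09, -0.03 and -0.06 over all features. CR1, a receptor of activated C3, was lower in Müller cells (-0.60) and astrocytes (-1.30), and CFP, properdin, in all 3 glial classes (-0.73 to -0.33). These are differences from the sum of neurons, and CFP in Müller cells (25.1 CPM) lay above RGCs (20.6 CPM).

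In stage contrasts, 1 of 39 pairs of complement gene and class was called, from infancy to senility, where 1.05% of all features in the classes were, so the count is near the background. C8B, a subunit of the membrane attack complex, fell in BCs by 2.47 on the log2 scale from infancy to senility (SE 0.48, edgeR adjusted p = 0.0104). It stood at 5.66, 5.32, 7.09, 6.27 and 6.49 CPM in infant BCs, at 2.59, 2.15, 5.45, 3.90 and 1.85 CPM in mature BCs and at 2.88, 0, 0.805, 0.842 and 0.650 CPM in senile BCs. Infant and senile retinas did not overlap. In BCs C8B passed the filter on low counts through the infant retinas, where it was highest. Its change and adjusted p in BCs are therefore a description, and no test is drawn from them. These levels rest on few molecules, 0 to 49 UMIs per retina. Without Senile 5 the adjusted p was 0.0558, and within the sets the change was -1.37 (5.0.1, adjusted p = 0.474) and -3.11 (7.0.1, adjusted p = 0.0672). In the whole retina C8B fell by 2.34 (edgeR adjusted p = 0.0295), a call that was lost without Infancy 2, 3 or 5 or Senile 2 or 5 (adjusted p from 0.059 to 0.0919) and without the version term (adjusted p = 0.184). With each retina left out the value there was -2.85 to -2.08.

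C7, another subunit of that complex, had its highest mean in cones. It averaged 40.7 ± 48.5 CPM in cones, and ran from 0 CPM in 4 of the 7 libraries of the 5.0.1 set to 153 CPM in Infancy 4. Mature 1, of the 5.0.1 set, had 85.2 CPM in cones. The 8 libraries of the 7.0.1 set had 0.808 to 153 CPM, and no other class averaged above 1.97 CPM in either set.

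Of 25 further genes at loci associated with macular degeneration, 23 names were in the files, without ARMS2 and RDH5, and 21 had a UMI. None of their 85 pairs of gene and class was called between stages. Against neurons, 4 of 11 tested were higher and 2 lower in microglia, 3 and 3 in Müller cells and 4 and 0 in astrocytes, beside the 54.4%, 68% and 57.7% of all features called. ABCA1 (3.25), which exports cholesterol, and TGFBR1 (2.98), a receptor of TGF-beta, were higher in microglia on the log2 scale. VEGFA, the vascular growth factor, was higher in astrocytes (3.09, SE 0.10, edgeR adjusted p = 4.87e-34) and Müller cells (0.71) and lower in microglia (-0.46). TRPM3 (2.30), a cation channel, and RORB (1.62), a nuclear receptor, were higher in Müller cells, and ADAMTS9 (2.15), a metalloproteinase, in astrocytes. These differences are against the sum of neurons, in which cones held the most UMIs. By class means HCs had 10813 CPM of TRPM3, 3030 CPM of RORB and 114 CPM of VEGFA. Müller cells had 3453, 3187 and 76.3 CPM of these genes.

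Of 21 partners and paralogs of the 9 genes, 20 names were in the files, without TREM2, and none of 57 pairs was called between stages. Among the cathepsins, not all of which are targets of cystatin C, CTSD was higher in microglia than in neurons by 3.07 on the log2 scale (SE 0.14, edgeR adjusted p = 2.61e-26). CTSC was higher there by 6.80. Of 9 tested, 4 were higher and 1 lower in microglia, 3 and 1 in Müller cells and 5 and 2 in astrocytes, beside the 54.4%, 68% and 57.7% of all features called. ABCG1, a cholesterol exporter, was lower in all 3 glial classes than in the sum of neurons (-1.80 to -0.36), although Müller cells (33.1 CPM) lay above RGCs (24.0 CPM). TYROBP, the adaptor of several microglial receptors, was higher in microglia by 6.08. CTSC and TYROBP were low outside microglia (at most 17.4 and 14.1 CPM by class mean, against 485 and 287 CPM), so these values too are descriptions. LRP1, a receptor for APOE, was higher in all 3 glial classes (1.81 to 2.10). MMP14, a metalloproteinase of the cell surface, had 24.1 CPM in Müller cells and 26.3 CPM in astrocytes and at most 3.28 CPM by class mean elsewhere, so its log2 differences (5.40 and 5.60) are descriptions as well. TIMP2, a paralog of TIMP3, was higher in Müller cells (2.09) and astrocytes (1.86).

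Between the sets of libraries, 0 of 39 complement pairs were higher and 5 lower in the 7.0.1 set, 8 and 8 of 85 pairs of locus genes, and 1 and 16 of 57 pairs of partners, beside 20.7% of all features called in either direction. Over all nuclei of a retina, 3 of 15 complement genes were higher and 1 lower, 0 of 17 locus genes were higher and 2 lower and 1 of 18 partners was higher and 5 lower, beside 36.4% of all features. The genes tested there and in the classes were not the same, and no direction of a list is read from these counts. CTSD was among the lower ones, in Müller cells by a log2 difference of -2.23 (SE 0.35, edgeR adjusted p = 4.38e-04), as was CLU (-1.86, SE 0.36, adjusted p = 0.00192). CLU averaged 2953 ± 950 CPM in Müller cells of the 5.0.1 set (n = 7) and 859 ± 698 CPM in those of the 7.0.1 set (n = 8), where Senile 3 had the highest value (2552 CPM).

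Genes of like pattern were sought by the correlation of log2(CPM + 10) over 142 sums of class and retina, among 12731 features. These sums share libraries and depth, so the coefficients describe the data and carry no test. C1QA was most like C1QB (Pearson's r = 0.976), then MAMU-DRA (0.969) and SDC1 (0.953). C1QB was most like C1QA, then ALOX5AP (0.975) and MAMU-DRA (0.972). TIMP3 came closest to WWTR1 (0.812), HES1 (0.805) and CNN3li2 (0.800), and HTRA1 to RGS20li1 (0.824), MACF1 (0.807) and USP12 (0.804). CST3 had its highest values with CHTOP-AS-1 (0.755), CL031 (0.683) and SELENOF (0.680). CFI had none above 0.534.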

How the data were processed

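Nuclei from frozen TS retina had been sequenced with 10x 3′ chemistry, and the authors deposited a matrix of raw UMI counts per library, made with Cell Ranger (versions 5.0.1 and 7.0.1 per the labels, 6.1.2 and 7.0.1 per the file headers) on the TS_3.0 genome. Whether intronic reads were counted is not given in the sources used here. From these counts, nuclei were kept at above 200 genes, below 6000 genes and below 5% mitochondrial UMIs, as in the study's methods. A nucleus was assigned to a class when the summed UMIs of that marker list exceeded the library's share (Poisson tail p of at most 0.001, at least 2 markers, and no second list near it). No doublet caller was run, and nuclei with markers of 2 classes were left out. UMIs were summed per retina and class (at least 10 nuclei) and tested with edgeR 4.0.16 (R 4.3.3, quasi-likelihood, TMM, low counts filtered), with stage and Cell Ranger version as terms, or with class and retina for glia against neurons. P-values were adjusted by Benjamini-Hochberg over all features of a fit, with a threshold of 0.05. Per the study's text each retina came from a separate donor, which the labels do not state. Intervals are exact at 95% and cover counting error only, and the limit for a count of 0 is 3 counts.

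DESeq2 1.42.0, other factors, gates and filters, a replicate block and leaving out each retina were tried. Levels were computed in Python 3.11.15. The 9 genes and the gene lists were chosen with earlier results of these data known. The genes named from the lists were taken, for each comparison and class, from those past the threshold (at most 5 per direction by size of change) or from the 4 with the highest mean level, and for likeness from the 3 highest correlations. C7 and the retinas singled out were chosen after their values were seen. The fits were run on simulated data that held no difference between the sets of libraries. These runs cannot show how the fits behave with such a difference. Replicate numbers were not taken to pair the retinas, since not every same-numbered pair correlated above 0.1 and no source links the numbers. No tree shrew genome of this build was used here, so positions and sequences are not given.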

Additional observations from a re-analysis of the deposited data

Results flagged for a closer look

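Of 86 sets of 5 retinas (a gene in a class and stage, with at least 100 UMIs), 6 had a retina far from the other 4, where chance gives about 1 in 20, or 4.3. Of these, 4 were TIMP3 in Mature 4, with 224 CPM in the whole retina (next mature retina 32.4), 63.8 CPM in cones (next 10.0), 53.5 CPM in BCs (next 10.8) and 31.9 CPM in RGCs (next 12.1). This retina also held lens crystallin and TTR RNA, whose part was not tested. The other 2 were CFI, with 13.4 CPM in BCs of Mature 1 (next 9.75) and 8.17 CPM in RGCs of Mature 3 (next 15.9).

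Features beside the 9 genes also had UMIs. The copy C3li1 had 49 UMIs in 14 of 15 retinas where C3 had none, and the antisense features HTRA1-AS-2, CFI-AS-1 and C3-AS-2 had 1536, 663 and 158 UMIs, each in all 15.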

How the results depend on the processing

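Without a filter on low counts, 8, 9 and 3 of 57 pairs of gene and class were called (0.800%, 0.315% and 0.865% of all features) from infancy to maturity, from maturity to senility and from infancy to senility, where the filtered fit called 0, and 5 genes were called between astrocytes and neurons instead of 3. Within the 5.0.1 libraries 2 pairs in classes and 1 gene in the whole retina were called between infancy and maturity, and DESeq2 called 1 gene, CFI, in the whole retina between maturity and senility. Leaving out each retina gave 2 to 5 genes called between the library sets in the whole retina. The cause of these differences was not tested. The sign from infancy to senility in microglia was not stable. For C1QA (0.41) it was -0.90 without the version term, -0.82 within the 5.0.1 set and -0.85 to 0.92 with each retina left out (-0.09 without Infancy 5, -0.85 without Senile 3). For CST3 (0.47) these values were -0.62, -0.46, and -0.27 to 0.85 with each retina left out (-0.04 without Infancy 5, -0.27 without Senile 3). For C1QB (-0.27) it was 1.03 within the 7.0.1 set and, with each retina left out, -1.21 to 0.17 (0.17 without Senile 1). DESeq2 gave 0.70 for C1QB in astrocytes against neurons, where edgeR gave -0.39. Same-numbered retinas correlated from -0.53 to 0.69, with 13 of 15 pairs over 0.1, and since not every pair was, the numbers were not taken as a pairing. Of the 15 pairs, 13 lay within a library set (median 0.46, 12 over 0.1), and differently numbered retinas of the same set had a median of 0.34 with 20 of 24 over 0.1. With the replicate block C1QA gave -0.65 and CST3 -0.34 in that contrast, and features called in the whole retina between infancy and maturity went from 288 to 153. In 4 of 15 retinas the best correlate in another stage had the same number.

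Counts over all features moved by more than 1.5 times in some settings. In the 9 classes, 524 features between infancy and maturity became 1156 with DESeq2, 2934 without the filter and 124 within the 7.0.1 set, 774 between infancy and senility became 1303, 3172 and 300, and 5 between maturity and senility became 189 and 1155 with DESeq2 and without the filter. Without Infancy 4 the first count was 340. In the whole retina, 288 between infancy and maturity became 740 with DESeq2, 133 without the version term and 25 within the 7.0.1 set, 474 between infancy and senility became 844, 283 and 142, and 0 between maturity and senility became 194 with DESeq2 and 30 without the filter. Without the filter 12011, 17930 and 12427 features were called in microglia, Müller cells and astrocytes against neurons, beside 5005, 6247 and 5302. Low UMI numbers limit C1QA, C1QB and CFI most, and C1QC, C3 and APOE allow no comparison.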
